A study of Mus musculus with 12 samples.

Results

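The adult haemoglobin chains and the red cell form of the first haem enzyme were followed in the ventral hippocampus of mice. The 5 genes were taken by symbol from the deposited counts of all 12 libraries: Hbb-bs and Hbb-bt for the beta chain, Hba-a1 and Hba-a2 for the alpha chain, and Alas2. They are 5 of 54532 genes in the count table, and all 5 passed the filter on low counts that left 16915 genes for testing. They were selected on measured values, their higher counts in CSDS than in control libraries, so that difference is given below as a description with no test.

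Haemoglobin is a tetramer of paired alpha and beta chains, each holding a haem group that binds oxygen. Red cells lose their nucleus as they mature, and the youngest circulating red cells, the reticulocytes, still carry globin mRNA in large amounts. Alas2 encodes the red cell 5-aminolevulinate synthase, which makes the first intermediate of haem, whereas other tissues use Alas1. Globin mRNA in brain tissue is known from blood held in the vessels, and low levels have also been described in neurons and glia. Whether the animals were perfused before dissection is not given in the sources used here.

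All mice were labelled wild type. The groups, with 3 libraries each, were untreated mice (control), mice under CSDS, mice under SSDS that had received AAV8-eGFP (SSDS-GFP), and mice under SSDS in which the liver's ACOT12, a thioesterase that splits acetyl-CoA, was knocked down (SSDS-shACOT12). The labels give CSDS and SSDS only as abbreviations; they are commonly used for the chronic and the subthreshold form of social defeat stress. The columns of both SSDS groups carry the prefix TBG, a name commonly used for a liver-specific promoter, which the labels do not expand. No virus is named for control or CSDS, so virus and SSDS cannot be told apart when an SSDS group is set against either. Strain, age and sex are not given in the labels. Nothing says that replicates came from separate animals, and p-values then measure only the spread among these samples, which may be technical.

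Library totals ran from 14656714 to 17694570 counts, and the 5 genes together took 1174 to 6168 counts of a library. All 10 listed genes of hippocampal neurons were tested, with a summed level of 7748 to 10588 CPM (counts scaled to a common library size with TMM factors). The first principal component set 3 libraries apart: SSDS-shACOT12 3 scored 63.1, SSDS-shACOT12 1 scored 37.4 and SSDS-GFP 3 scored 35.7, and the remaining 9 scored at most 5.82. Counts of mitochondrial genes were a smaller share in SSDS-shACOT12 1 (3.23%) and SSDS-shACOT12 3 (4.31%) than elsewhere (6.31% to 9.24%). SSDS-shACOT12 3 is also the library that decides most of what follows for the knockdown group, and values without it are given there.

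The chains of a pair are close to identical in sequence, which bears on every count below. In the GENCODE M21 transcripts (mm10), the coding sequences of Hbb-bs and Hbb-bt are 441 bases long without the stop codon and differ at 1 base. It is C417T, written as the Hbb-bs base, its position counted from 1 at the A of the start codon, and the Hbb-bt base. The coding sequences of Hba-a1 and Hba-a2 are 426 bases long and also differ at 1 base, C381T in the same notation from Hba-a1 to Hba-a2. The stretches around these positions are shown because they are the coding bases by which a read can be given to a chain of the pair, with the differing base in capitals.
Hbb-bs: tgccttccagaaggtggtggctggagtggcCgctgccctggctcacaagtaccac
Hbb-bt: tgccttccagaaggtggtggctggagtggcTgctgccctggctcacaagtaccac
Hba-a1: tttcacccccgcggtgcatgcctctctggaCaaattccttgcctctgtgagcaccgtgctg
Hba-a2: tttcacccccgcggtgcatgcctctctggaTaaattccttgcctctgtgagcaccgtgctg

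Over the whole transcript, 62.6% of all 100-base windows of Hbb-bs and 54.8% of those of Hbb-bt were found word for word in another of the 5 genes. The shares were 56.5% for Hba-a1 and 74.5% for Hba-a2. Alas2 shared 0 windows of 50, 100 or 150 bases with the globins. Alpha and beta coding sequences were 60.2% to 60.3% identical. The read length and the treatment of reads with several matches are not given in the sources used here. Counts within a pair are therefore uncertain as a split between its members, and if shared reads were left out, both members would be understated. Alas2 is not touched by this.

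The beta genes lie on chromosome 7 of mm10, Hbb-bs (ENSMUSG00000052305) at 103826534 to 103828096 and Hbb-bt (ENSMUSG00000073940) at 103812524 to 103813996, both on the minus strand. The alpha genes lie on the plus strand of chromosome 11, Hba-a1 (ENSMUSG00000069919) at 32283511 to 32284465 and Hba-a2 (ENSMUSG00000069917) at 32296489 to 32297298. Alas2 (ENSMUSG00000025270) lies on the plus strand of chromosome X at 150547375 to 150570638.

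The stretches before the start sites are shown as a description of the 5 genes, which sit at 3 separate loci. Whether these sequences bear on the levels measured here was not tested. All 5 genes matched an entry of the RefSeq promoter table (GRCm38.p6). Each line gives 83 or 120 bases before the RefSeq start that hold no annotated untranslated base, written 5′ to 3′ on the gene's strand. Relative to the start, the lines span -83 to -1 (Hbb-bs), -193 to -74 (Hbb-bt), -123 to -4 (Hba-a2) and -162 to -43 (Alas2). Capitals mark matches on either strand to 4 motifs: GATAA (read by GATA factors), CACCC (read by KLF factors), CCAAT and the TATAA box. The lines cover chr7:103827929-103828011 for Hbb-bs, chr7:103813997-103814116 for Hbb-bt, chr11:32296369-32296488 for Hba-a2 and chrX:150547255-150547374 for Alas2. Hba-a1 is left out, since its window free of untranslated bases ends at -162. The Hbb-bs stretch lies within the span of that gene given above, which begins upstream of the RefSeq start. Matches that end nearer the start than the lines are not marked. For Hbb-bt they are CCAAT at -75 on the gene's strand, cut by the end of its line, CCAAT at -36 and TATAA at -28. For Alas2 they are CACCC at -40, -35 and -30.
Hbb-bs: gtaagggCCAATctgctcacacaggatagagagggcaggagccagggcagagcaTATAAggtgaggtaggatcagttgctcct
Hbb-bt: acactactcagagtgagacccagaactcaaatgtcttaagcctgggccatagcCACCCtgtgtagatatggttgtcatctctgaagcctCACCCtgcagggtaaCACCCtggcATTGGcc
Hba-a2: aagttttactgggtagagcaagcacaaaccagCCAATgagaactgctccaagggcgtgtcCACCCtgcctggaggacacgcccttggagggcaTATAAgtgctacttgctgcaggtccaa
Alas2: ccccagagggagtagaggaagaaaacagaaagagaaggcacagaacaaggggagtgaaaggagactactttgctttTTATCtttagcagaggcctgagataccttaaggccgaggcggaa

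Over the full 250 bases before the start, each of the 4 globin genes held all 4 motifs, against 0.968% of the 32851 windows in the table. Alas2 held matches to 3 of them, with CCAAT missing. Single motifs were common: GATAA was in 22.6% of the windows, CACCC in 52.0%, CCAAT in 33.9% and TATAA in 22.8%. TATAA began 29, 28, 27 and 30 bases before the start of Hbb-bs, Hbb-bt, Hba-a1 and Hba-a2 (positions -29, -28, -27 and -30), and in Alas2 its nearest match was at -207. Hba-a1 and Hba-a2 shared an unbroken run of 247 of the 250 bases, whereas the longest run shared by Hbb-bs and Hbb-bt was 14 bases. A match is a description of these letters and not a measured binding site.

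Adult globin transcripts were about 3-fold higher in CSDS than in control libraries, and SSDS-GFP lay near control. SSDS-shACOT12 had beta chain means near control and alpha chain means about 1.7-fold higher, with 1 library, SSDS-shACOT12 3, above the rest. Per gene length, the order of the 5 genes was the same in control and CSDS. On the deposited FPKM scale (fragments relative to gene length and library size), control libraries held 80.1 ± 13.2 for Hbb-bs, 39.2 ± 3.52 for Hba-a1, 7.77 ± 2.48 for Hbb-bt, 6.41 ± 4.41 for Hba-a2 and 0.941 ± 0.0464 for Alas2 (mean ± SD, n = 3). CSDS libraries held 257 ± 31.2, 143 ± 12.3, 28.9 ± 4.63, 19.1 ± 2.50 and 2.36 ± 0.816 FPKM in that order of genes. In control the order of Hbb-bt and Hba-a2 was within their spread.

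Hbb-bs, the more abundant beta chain, had 50.9, 69.9 and 65.7 CPM in control and 222, 173 and 201 CPM in CSDS. The SSDS-GFP libraries held 63.2, 50.3 and 35.1 CPM and the SSDS-shACOT12 libraries 51.5, 49.8 and 87.8 CPM. The 3 CSDS libraries were above all 9 others, and the ranges of the other 3 groups overlapped. The group means were 62.2 ± 9.95, 199 ± 24.7, 49.5 ± 14.1 and 63.0 ± 21.5 CPM (SD, n = 3 each) for control, CSDS, SSDS-GFP and SSDS-shACOT12.

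Hbb-bt, the minor beta chain, was at 3.51, 6.62 and 6.42 CPM in control and at 23.7, 17.1 and 20.5 CPM in CSDS. It was at 6.21, 4.73 and 3.03 CPM in SSDS-GFP and at 4.08, 4.20 and 8.05 CPM in SSDS-shACOT12. CSDS again lay above every other library, and control and both SSDS groups overlapped. In log2 CPM over the 12 libraries Hbb-bs and Hbb-bt correlated at r = 0.99, and at 0.97 for deviations from the group means, a description over libraries that share their groups and, for this pair, most of their sequence.

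Hba-a1, the more abundant alpha chain, was at 29.0, 33.6 and 33.8 CPM in control and at 121, 124 and 106 CPM in CSDS. The SSDS-GFP libraries held 44.1, 28.7 and 24.9 CPM. SSDS-shACOT12 libraries held 40.9, 33.2 and 91.9 CPM. The value of SSDS-shACOT12 3 lay between the CSDS libraries and all the rest. Control libraries were close together, with a mean of 32.1 ± 2.69 CPM (SD, n = 3), against 32.6 ± 10.2 in SSDS-GFP and 55.3 ± 31.9 in SSDS-shACOT12.

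Hba-a2 was at 1.92, 7.66 and 3.39 CPM in control and at 11.1, 14.3 and 13.0 CPM in CSDS. SSDS-GFP libraries had 4.33, 2.76 and 2.92 CPM, and those of SSDS-shACOT12 had 4.82, 4.52 and 13.1 CPM. SSDS-shACOT12 3 reached the range of CSDS for this gene. The control libraries differed from each other more than for any other of the 5 genes, with a coefficient of variation of 68.9%. Without Control 2 the log2 difference between CSDS and control was 2.27 in place of 1.57.

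Alas2 was low, with exactly 36 counts in each control library and 126, 69 and 87 counts in CSDS. This gave 2.39, 2.34 and 2.14 CPM in control and 7.89, 4.01 and 5.25 CPM in CSDS. SSDS-GFP held 1.52, 1.64 and 1.26 CPM, all below the control range, and SSDS-shACOT12 held 1.55, 1.02 and 4.21 CPM. The high library of the knockdown group, SSDS-shACOT12 3, was the same as for the globins and lay within the CSDS range.

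**Figure D1:**
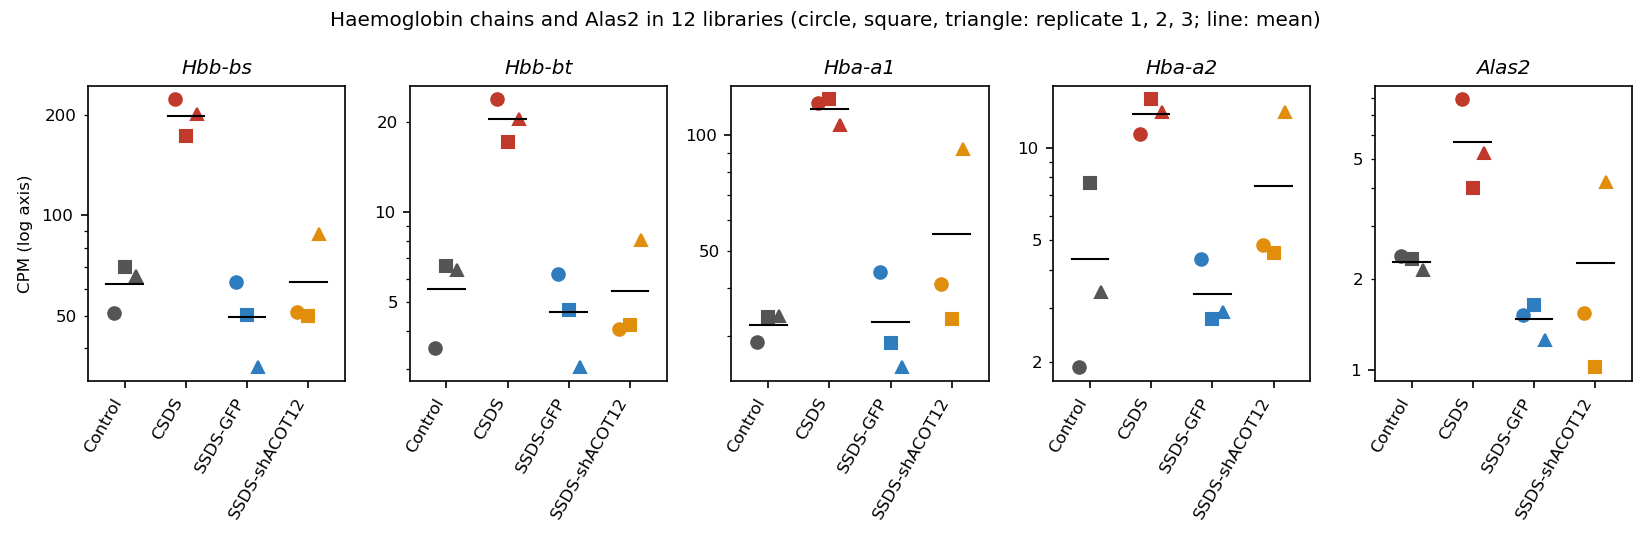
CPM (log axis, a separate scale per gene) of the 5 genes by group; each point is a library, its shape gives the replicate number, and the line is the group mean. The 3 CSDS libraries lie above the control libraries for every gene, and the triangle of SSDS-shACOT12 lies above the other 2 libraries of its group for every gene.

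Between CSDS and control the fitted log2 differences were 1.68 ± 0.25 for Hbb-bs, 1.88 ± 0.33 for Hbb-bt, 1.86 ± 0.32 for Hba-a1, 1.57 ± 0.47 for Hba-a2 and 1.32 ± 0.42 for Alas2 (SE from the model). These correspond to 3.19-, 3.69-, 3.64-, 2.96- and 2.49-fold higher levels. For 5 of 5 genes the 3 CSDS libraries lay above the 3 control libraries, where 10.2% of all tested genes were higher without overlap. Nothing is read from that count, since the genes were proposed with this comparison in view. The median over the 5 genes was 1.68, beside 0.0015 over all tested genes. In a bulk sample, more cells of a type and more RNA per cell cannot be told apart.

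The SSDS groups are set against the same control libraries and are described with no test for that reason. Of the 5 genes, SSDS-GFP had 1, Alas2, without overlap below control, where 11.4% of all tested genes lay lower without overlap. The fitted log2 differences from control ran from -0.64 ± 0.45 for Alas2 to 0.02 ± 0.31 for Hba-a1. That of Hba-a2 was -0.38 ± 0.48, and 0.32 without Control 2. SSDS-shACOT12 overlapped control for 5 of 5 genes, while 25.5% of all tested genes did not overlap in 1 direction or the other. Its differences from control ran from -0.02 ± 0.33 for Hbb-bt to 0.79 ± 0.47 for Hba-a2. Without SSDS-shACOT12 3 these values were -0.43 for Hbb-bt and 0.10 for Hba-a2, and without Control 2 that of Hba-a2 was 1.48. In the same way Hba-a1 went from 0.78 to 0.19, Hbb-bs from 0.02 to -0.30 and Alas2 from -0.02 to -0.84.

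Against CSDS, SSDS-GFP lay lower without overlap for 5 of 5 genes, a state shared by 4.66% of all tested genes, with log2 differences from -2.14 ± 0.33 (Hbb-bt) to -1.85 ± 0.32 (Hba-a1). SSDS-shACOT12 lay lower without overlap for 3 genes, Hbb-bs, Hbb-bt and Hba-a1, against 6.79% of all tested genes. Hba-a2 and Alas2 overlapped there through SSDS-shACOT12 3. The CSDS libraries were in the comparison by which the genes were proposed, so these values too are descriptions.

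**Figure D2:**
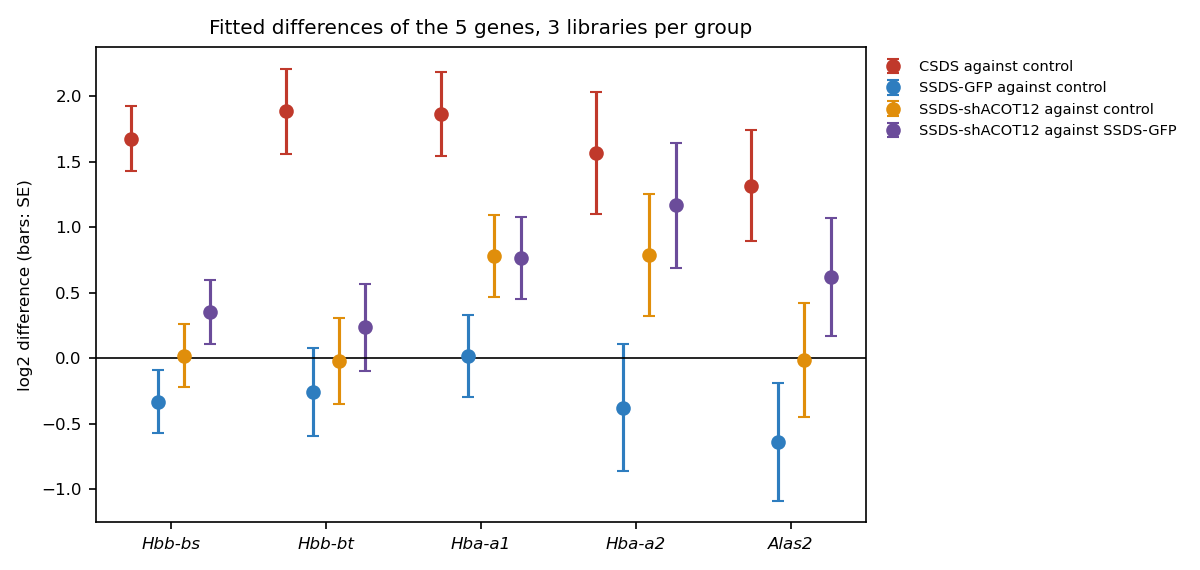
Fitted log2 difference (points) and SE (bars) of the 5 genes in 4 comparisons with 3 libraries per group. CSDS against control lies between 1.32 and 1.88 for all 5 genes, while SSDS-GFP against control lies between -0.64 and 0.02.

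The effect of hepatic ACOT12 knockdown under SSDS was asked in SSDS-shACOT12 against SSDS-GFP, whose 6 libraries were not in the comparison by which the genes were proposed. All 5 genes had higher means with knockdown, but 0 of 5 passed the test, where 0% of all 16915 genes passed (edgeR; 766 genes at an unadjusted p under 0.05; DESeq2 and limma also called 0). Hba-a2 differed by 1.17 ± 0.48 on the log2 scale (edgeR adjusted p = 0.803, unadjusted p = 0.0289; 95% interval 0.14 to 2.20). Hba-a1 differed by 0.77 ± 0.31 (edgeR adjusted p = 0.803, unadjusted p = 0.029; interval 0.09 to 1.44). The intervals of the other 3 genes held 0. They were -0.17 to 0.88 for Hbb-bs, -0.49 to 0.96 for Hbb-bt and -0.35 to 1.59 for Alas2, around differences of 0.35 ± 0.24, 0.23 ± 0.33 and 0.62 ± 0.45. These intervals still hold differences of 1.5-fold and more for Hbb-bs and Hbb-bt, so a p that misses the threshold does not show equal levels.

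Of the 5 genes, 1 did not overlap between SSDS-shACOT12 and SSDS-GFP, Hba-a2, with 4.52 to 13.1 CPM against 2.76 to 4.33. Among all tested genes 2.23% lay higher without overlap. With no filter on low counts, edgeR called 2 of the 5 genes, Hba-a1 (adjusted p = 0.029) and Hba-a2 (adjusted p = 0.0321). In that setting it called 108 of all 32777 genes with a count, so the calls of the 2 members turn on the filter.

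The differences of this contrast rest mainly on 1 library. Without SSDS-shACOT12 3 the log2 differences were 0.04 for Hbb-bs, -0.15 for Hbb-bt, 0.19 for Hba-a1, 0.50 for Hba-a2 and -0.19 for Alas2. Leaving out each of the other 5 libraries gave a positive value for every gene except Hbb-bt without SSDS-GFP 3 (-0.01). The highest values were 0.56, 0.49, 1.04, 1.42 and 0.96 in the order given above. Untested blood cell genes did not all go 1 way in that library. The 12 untested lymphocyte genes summed to 259 counts there, of which 228 were Igkc, an antibody light chain, against 12 to 40 in the other libraries; without Igkc the sum was 31 there and 12 to 31 in the others. The 10 untested neutrophil genes summed to 93 counts against 3 to 29, and the 12 untested red cell genes to 26 counts against 3 to 15. The 7 untested platelet genes were at their lowest there, with 6 counts against 7 to 18. The 7 untested monocyte genes summed to 31 counts, below the 172 of SSDS-GFP 3. Their part in the globin values was not tested.

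**Figure D3:**
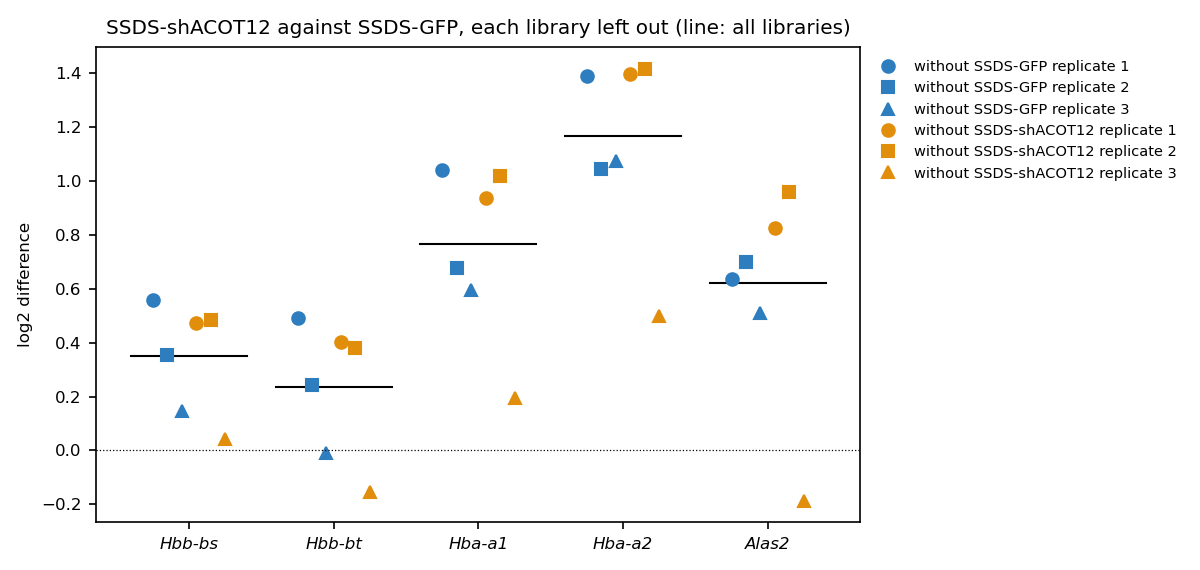
Log2 difference between SSDS-shACOT12 and SSDS-GFP with each of the 6 libraries left out in turn; the black line is the value with all libraries. The triangle for SSDS-shACOT12 3 left out is the lowest point for every gene, at 0.04, -0.15, 0.19, 0.50 and -0.19.

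The balance between chains differed among libraries. Alpha chains made up 34.0% to 36.3% of all adult globin counts in control and 35.0%, 42.1% and 35.0% in CSDS 1, 2 and 3. SSDS-GFP libraries had alpha shares of 36.4% to 42.2%, and SSDS-shACOT12 1, 2 and 3 had shares of 45.2%, 41.1% and 52.3%. The 95% exact binomial interval was 50.5% to 54.0% in SSDS-shACOT12 3 and 31.9% to 36.2% in Control 3, the library with the lowest share. These intervals cover counting error only.

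Within the beta pair, Hbb-bt took 6.46% to 9.65% of the counts over all 12 libraries, with means of 8.01% ± 1.35 for control and 9.30% ± 0.334 for CSDS (SD, n = 3). SSDS-GFP had 8.50% ± 0.502 and SSDS-shACOT12 7.84% ± 0.527. CSDS, at 8.99% to 9.65%, lay just above the 3 other groups, whose highest library was at 8.95%. That gap is within counting error. The intervals were 8.03% to 10.0% in CSDS 2, the lowest of CSDS, and 7.22% to 10.9% in SSDS-GFP 1, the highest of the others. Within the alpha pair, Hba-a2 took 18.6% of the counts in Control 2 (interval 15.6% to 21.8%) and 6.21% in Control 1 (4.20% to 8.80%). The remaining 10 libraries lay between 8.37% and 12.5%. The interval of Control 2 lay above that of every other library. That of Control 1 overlapped others, such as that of CSDS 1 (7.22% to 9.63%). Control 2 therefore stood apart in how alpha counts were split between near-identical genes. Alpha chains summed to 636 counts in Control 2 and 467 in Control 1, which were 35.0% and 36.3% of all adult globin counts. Alas2 was 1.10% to 2.72% of the counts of all 5 genes.

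**Figure D4:**
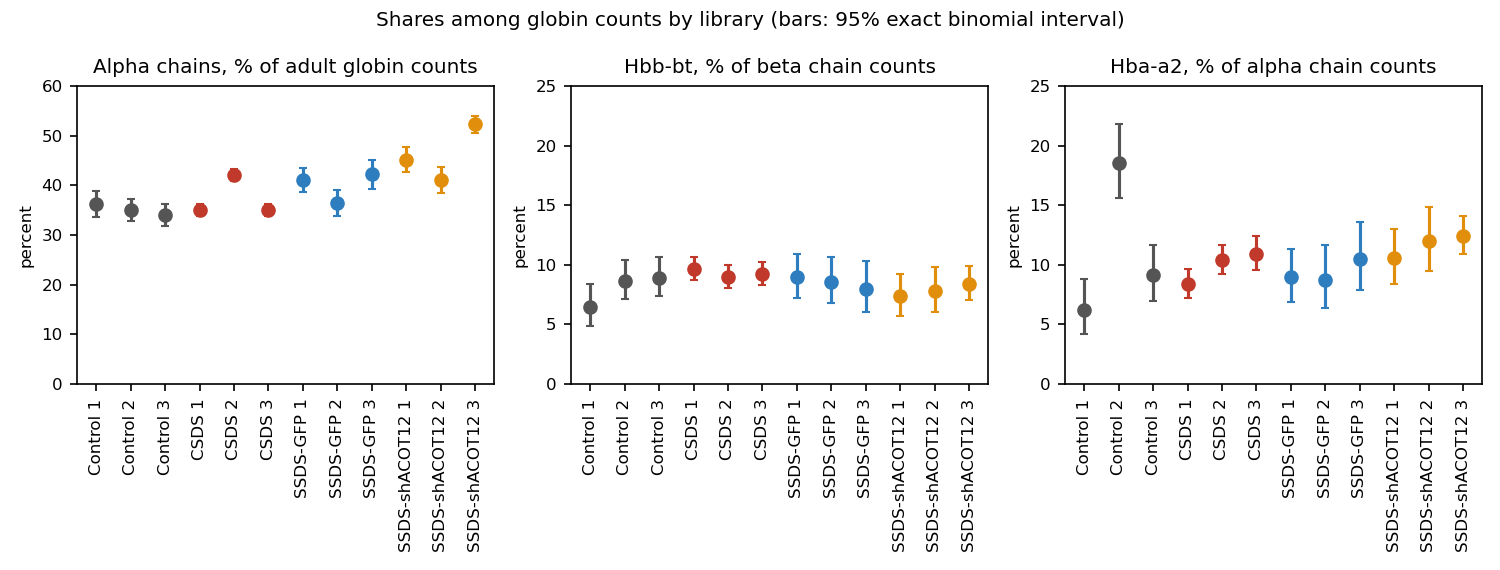
Shares among globin counts in each library (percent; bars are 95% exact binomial intervals, counting error only). The alpha share is highest in SSDS-shACOT12 3 at 52.3%, and the Hba-a2 share is highest in Control 2 at 18.6%.

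Over the 12 libraries the 10 pairs of the 5 genes correlated at r = 0.74 to 0.99 in log2 CPM, the lowest for Hba-a2 with Alas2. For deviations from the group means the range was 0.48 to 0.97. These are descriptions, since the libraries share 4 groups and SSDS-shACOT12 3 was high for every gene. The summed level of the 4 globins averaged 104 ± 16.8 CPM for control and 349 ± 26.3 CPM for CSDS (SD, n = 3). It averaged 90.1 ± 26.2 CPM for SSDS-GFP and 131 ± 60.4 CPM for SSDS-shACOT12.

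Genes with a pattern most like this sum, ranked by Pearson r of log2 CPM over the 12 libraries, were Hspa12b, an atypical heat shock protein of the Hsp70 family (r = 0.86), Wfdc18 (0.85), Gm16499 (0.82), Tmem204 (0.81) and Tie1, a receptor tyrosine kinase of endothelial cells (0.79). Gtf3c2, Acr, Adcy4 and Spred3 followed at 0.77 to 0.75. Their difference between CSDS and control was smaller than that of the globins. The means of Hspa12b were 7.47 CPM (control) and 10.3 CPM (CSDS), those of Tie1 10.6 and 14.0. By Spearman's rho, 2 of the 10 genes ranked highest by Pearson r, Tmem204 and Gm16499, were again among the 10 highest.

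Beyond the adult globins and Alas2, red cell genes had a median difference near 0 between CSDS and control. No gene of any other list was called by edgeR between CSDS and control or between the SSDS groups. For CSDS against control edgeR called 0% of all 16915 genes, with 993 at an unadjusted p under 0.05, and DESeq2 called 6 (0.0355%). Among the other globins, Hbb-bh1, Hbb-bh2, Hbb-bh0 and Hba-x had 0 counts in all libraries. Hbb-y, an embryonic beta-like chain, had 0 to 2 counts and Hbq1a, a theta chain gene, 1 to 17. Of the globins of other tissues, cytoglobin (Cygb) had means of 71.9 ± 4.99 CPM (control) and 71.8 ± 1.32 CPM (CSDS), and neuroglobin (Ngb) of 1.06 ± 0.711 and 2.09 ± 0.0852 (SD, n = 3).

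Of 31 measured genes of the red cell membrane, cytosol and maturation, 19 were tested, and the median log2 difference was 0.07 in CSDS against control and -0.02 in SSDS-shACOT12 against SSDS-GFP. In CSDS 3 of the 19 lay higher without overlap and 3 lower, where 10.1% of all tested genes lay lower. Several tested members are also expressed by neurons, such as Add2 (beta-adducin), Prdx2 and Sptb (beta-spectrin). Add2 had means of 399 ± 29.0 CPM (control) and 260 ± 44.3 CPM (CSDS), and Sptb of 250.1 ± 35.7 and 168 ± 7.26, with an edgeR adjusted p of 0.849 for both.

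Genes that mark red cells more strictly were near the detection limit. Slc4a1, the band 3 anion exchanger, had 4, 1 and 0 counts in control and 3, 0 and 0 counts in CSDS. It had 2, 2 and 0 counts in SSDS-GFP and 1, 0 and 11 counts in SSDS-shACOT12. The 12 genes of this list that were not tested summed to 13, 11 and 15 counts in control and to 11, 9 and 10 in CSDS, where the 5 genes studied here summed to 1324 to 1873 and 5717 to 6168 counts. At counts this low, differences of single genes were not tested. Of the transcription factors that drive red cell formation, Gata1 and Gfi1b had 0 counts in all libraries and Klf1 0 to 3.

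Haem and iron genes were well measured. All 18 genes of haem synthesis and breakdown were tested, with 11 of them at higher and 7 at lower means in CSDS and a median of 0.08. Slc48a1, a haem transporter, had the highest level, with 120.1 ± 7.00 CPM (control) and 132 ± 3.12 CPM (CSDS). It was 1 of 3 genes that lay higher without overlap, with Urod, an enzyme of haem synthesis (34.1 ± 3.01 and 40.1 ± 2.22), and Blvra, biliverdin reductase (12.6 ± 0.919 and 16.6 ± 0.668). Fech, which inserts iron into haem, was the 1 gene lower without overlap and had a mean of 64.3 ± 1.08 CPM (control) against 59.7 ± 0.977 CPM (CSDS). Among all tested genes 10.2% lay higher in CSDS without overlap and 10.1% lower. Alas1, the general form of the enzyme, was at 54.8 ± 2.49 and 52.6 ± 2.16 CPM, a log2 difference of -0.06 ± 0.14 beside 1.32 ± 0.42 for Alas2. Hmox1, the inducible haem oxygenase that starts haem breakdown, was at 4.27 ± 1.24 and 4.99 ± 0.153 CPM. Of 11 iron genes 10 were tested, with a median of -0.07. Fth1, the ferritin heavy chain, was at 2697 ± 236 and 2577 ± 162 CPM, and Tfrc, the transferrin receptor, at 163 ± 11.4 and 151 ± 4.78. Ftl1, the ferritin light chain, lay higher without overlap, at 84.7 ± 8.95 and 112 ± 6.82 (log2 difference 0.40 ± 0.19, edgeR adjusted p = 0.857). Among the 10 tested iron genes it was the 1 higher without overlap, and 1 other was lower. Among genes that clear free haemoglobin and haem, Lrp1, a haemopexin receptor, was at 339 ± 19.6 and 297 ± 26.1 CPM, and Hp, haptoglobin, was not tested, with 44 counts in all.

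Markers of the other cells of blood are given by the summed level of the tested genes. Of the neutrophil list 3 of 13 genes were tested, with summed levels of 2.50 to 11.2 CPM in control and 1.28 to 3.07 in CSDS, and Elane and Ly6g were at 0 counts in all libraries. The range in control rests on Lcn2 (0.238 to 9.67 CPM, against 0.121 to 0.251 in CSDS), while the 10 untested genes summed to 8, 8 and 29 counts in control and 22, 21 and 14 in CSDS. Under SSDS the tested neutrophil sums were 1.37 to 16.1 CPM with AAV8-eGFP and 1.48 to 11.4 with knockdown. Of the lymphocyte list 2 of 14 were tested, with 7.27 to 18.2 CPM in control and 6.62 to 12.5 in CSDS, and 5.18 to 8.95 and 5.41 to 13.0 in SSDS-GFP and SSDS-shACOT12. Of the platelet list 5 of 12 were tested, with 5.44 to 6.42 CPM in control and 6.76 to 7.27 in CSDS. These sums did not overlap, and of the 5 genes 1 lay higher without overlap, where 10.2% of all tested genes did. The 7 untested platelet genes overlapped, with 18, 14 and 10 counts in control and 16, 18 and 12 in CSDS. Tested platelet sums were 6.76 to 8.92 CPM in SSDS-GFP and 5.60 to 9.54 in SSDS-shACOT12. Tubb1 had 0 to 2 counts per library. Of the monocyte list 1 of 8 was tested, Fn1, with 32.4 to 57.6 CPM for control, 35.2 to 61.3 for CSDS, 28.1 to 45.4 for SSDS-GFP and 27.4 to 55.6 for SSDS-shACOT12.

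All 15 endothelial genes were tested, with sums of 444 to 521 CPM for control and 423 to 538 CPM for CSDS. The sums were 387 to 446 CPM for SSDS-GFP and 408 to 476 CPM for SSDS-shACOT12. Mural cell genes, 11 of 12 tested, summed to 260 to 301 CPM in control and 275 to 372 in CSDS, and to 241 to 272 and 257 to 312 in the SSDS groups. The endothelial median was 0.10 and the mural median 0.13 in CSDS against control. Choroid plexus genes varied widely among control libraries. Sums of the tested genes were 43.1 to 556 CPM for control, 20.9 to 31.9 for CSDS, 19.4 to 45.4 for SSDS-GFP and 18.6 to 36.1 for SSDS-shACOT12. The 5 untested genes summed to 203, 80 and 16 counts in Control 1, 2 and 3. Means of 7 of 7 tested genes were lower than control in CSDS, and of 7 of 7 in SSDS-GFP. Without overlap, 2 of them lay lower in CSDS and 1 in SSDS-GFP, where 10.1% and 11.4% of all tested genes did. The part of these cells in the globin difference was not tested.

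**Figure D5:**
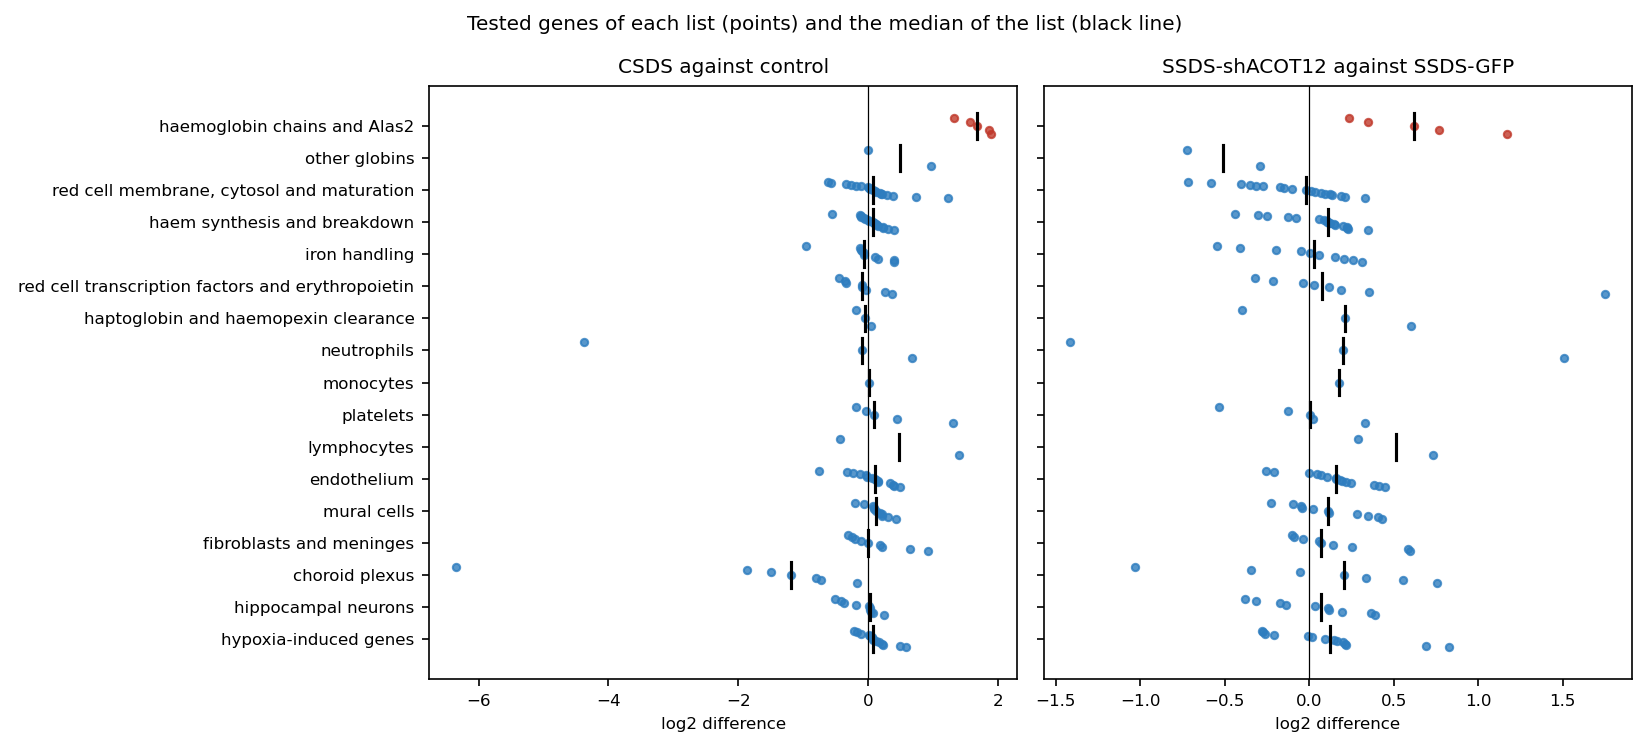
Log2 difference of every tested gene (points) by list and the list's median (black line), for CSDS against control and SSDS-shACOT12 against SSDS-GFP. In CSDS the haemoglobin chains and Alas2 have a median of 1.68, and the lists of other red cell, haem, iron and vessel genes have medians between -0.10 and 0.13.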

How the data were processed

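RNA sequencing libraries of 12 mouse ventral hippocampus samples, 3 in each of 4 groups, were analysed from the counts and FPKM values that the authors deposited. Per the submitters' processing notes, HISAT2 2.0.5, featureCounts 1.5.0-p3 and DESeq2 were used with the build mm10; their settings, the strand setting and the annotation release are not given in the sources used here. The library kit named in the labels does not state strand. The authors deposited raw counts, and FPKM values that they scaled to library size and to a gene length, other than expression, that the deposited tables give in bases.

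In R 4.3.3 with edgeR 4.0.16, low genes were removed (filterByExpr, minimum count 10 and total 15), libraries were scaled by TMM, and counts were fitted with a quasi-likelihood model of group over all 12 libraries. Tests were 2-sided with Benjamini-Hochberg adjustment over all 16915 genes and a threshold of 0.05. SE and 95% intervals come from that model. Alternatives used DESeq2 1.42.0, limma 3.58.1 on log2 FPKM plus 0.1 or 1, other filters and scaling, only the 6 libraries compared, a replicate block and each library left out. The fit was tested on simulated data. Sequences were compared in Python 3.11.15.

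The members and lists were chosen with earlier results of these data known. Named genes were the members and the 10 genes most like the globin sum. Of each list they were the called genes or up to 4 with the highest mean CPM. Low genes of the red cell and blood lists were added after their values were seen. So were single genes such as Alas1, Urod, Blvra, Hmox1, Hp, Slc4a1 and Vegfa. A few genes that the rule names are not reported here. What replicates with 1 number share is not given in the labels. In the SSDS groups, same-numbered libraries had deviations that correlated at 0.20, 0.42 and 0.35. All exceeded 0.1, so a fit with the replicate block was also made; those of control and CSDS correlated at -0.01, -0.01 and 0.05.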

Additional observations from a re-analysis of the deposited data

How the results depend on the processing

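All alternatives that kept all libraries gave the 5 genes the same direction in CSDS against control, with log2 differences from 0.77 (Alas2 on log2(FPKM + 1), a scale that shrinks low genes) to 1.92. In SSDS-shACOT12 against SSDS-GFP they gave positive values, from 0.18 to 1.17, with 0 of 5 genes called in each but 1. With no filter 2 were called, beside 108 of all 32777 genes with a count. With the replicate number as a block the count of called members and of all genes stayed at 0, over the 12 libraries and, chosen after seeing the data, over the 6 SSDS libraries alone. The block changed no other call. With each library left out, 0 members were called. The difference of Hbb-bt then ran from -0.15 to 0.49 and that of Alas2 from -0.19 to 0.96, the lowest without SSDS-shACOT12 3.

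Among all genes, the count called in SSDS-shACOT12 against SSDS-GFP was 108 with no filter, and 0 to 985 with a library left out. It was 985 without SSDS-shACOT12 2 and 2 without SSDS-shACOT12 1. In CSDS against control it was 6 with DESeq2, 132 with no filter, 84 on the 6 libraries alone, and 0 to 1 with a library left out (1 without Control 3). The cause was not tested. Low depth limits Alas2 (16 to 126 counts) and Hba-a2 (29 to 247).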

Other observations

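Genes known to be induced by low oxygen were measured as a further list of 14, and 0 were called by edgeR in either contrast. In CSDS 11 of 14 had higher means than in control and 3 lay higher without overlap, where 10.2% of all tested genes did. The median log2 difference was 0.08. Vegfa, the vascular endothelial growth factor, had means of 40.8 ± 6.04 CPM (control) and 61.2 ± 9.71 CPM (CSDS; SD, n = 3; edgeR adjusted p = 0.849). Its means under SSDS were 55.4 ± 9.77 CPM with AAV8-eGFP and 64.6 ± 7.42 CPM with knockdown. Vegfa was named outside the rule on mean CPM, so it does not stand for the list. The glycolytic enzymes Pgk1 and Ldha were at 448 ± 22.0 and 300 ± 15.9 CPM in control and at 453 ± 58.5 and 347 ± 29.5 in CSDS.

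When group means were removed first, other genes ran closest to the globin sum over the 12 libraries: Sult4a1, a brain sulfotransferase (r = 0.94), the phosphatase Dusp5 (0.93), Tmem42 (0.93), Chchd10 (0.93) and the neurofilament Nefm (0.92), followed by Oxct1, Lhfp, Pdhb, Ndufa1 and Cops9 at 0.92 to 0.90. Over the undivided libraries Sult4a1 had r = 0.32 and Dusp5 -0.05. The 2 rankings shared 0 genes.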
